A study of Mus musculus with 165 samples.

Results

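The 5 antigen receptor loci of the mouse were examined in the chromosome compartments of myeloid cells: the immunoglobulin heavy chain locus Igh, the kappa and lambda light chain loci Igk and Igl, and the T cell receptor loci Tcra/Tcrd and Tcrb. They are the 25 kb bins that start in 5 windows of the mm9 genome and hold a non-zero value in all 4 deposited Hi-C tracks. This gave 334 bins of the 100644 used over the genome. Igh (chromosome 12, 114500001 to 117200000) held 108 bins, Igk (chromosome 6, 67500001 to 70700000) 128, Tcra/Tcrd (chromosome 14, 53000001 to 54800000) 58, Tcrb (chromosome 6, 40800001 to 41500000) 28 and Igl (chromosome 16, 19000001 to 19300000) 12. Of the 72 possible bins of Tcra/Tcrd, 14 had no value, in gaps at 53450001 to 53625000 and 53775001 to 53950000, and every bin of the other windows had a value. Each window was set beside the 1 Mb on either side of it, which gave 40 bins per side.

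The cells were ECOMG cells, a single mouse myeloid progenitor line that depends on GM-CSF. All 4 groups carry the strain label C57BL/6 and the genotype label human E2A_ER_Pbx1b, wild type. The groups were undifferentiated progenitors (a track pooled from 7 libraries), untreated neutrophils obtained by 5 days without estradiol (pooled from 8 libraries of 7 replicates), and such neutrophils after 15 min or 30 min with the calcium ionophore A23187 (20 uM, with calcium chloride raised to 1 mM; 1 sample each). In situ Hi-C joins DNA ends that lie close together in the nucleus, and the first principal component (PC1) of the contact map separates chromatin into compartment A, usually active, and compartment B, usually inactive. PC1 is a score without a unit. It is centred on 0 with an SD near 1 on each chromosome, and positive values are called A and negative values B here by convention. Whether positive values mark the gene-rich side on each chromosome was not tested, so every A or B below is the sign of the deposited score.

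Antigen receptor genes are built in lymphocytes by V(D)J recombination, in which the RAG recombinase cuts and joins one V, one D where present, and one J segment out of long arrays, upstream of constant (C) genes. In B cell precursors Igh is recombined before the light chain loci, and the transcription factor E2A is known to act at immunoglobulin loci there. Developing T cells recombine Tcrb, Tcrd and Tcra. Myeloid cells do not rearrange these loci, so the compartments described here are those of loci outside the lineages that use them.

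In the RefSeq annotation of GRCm38.p6, used for names and order only, the Igh array holds 120 V segments, 63 V pseudogenes, 10 D segments, 4 J segments and 8 C genes, with the C genes toward the lower coordinates. Igk holds 102 V segments, 60 V pseudogenes, 5 J segments and 1 C gene, with V toward the lower coordinates. Tcra/Tcrd holds 119 V segments, 17 V pseudogenes, 2 D, 53 J and 2 C, and Tcrb 22 V segments, 13 V pseudogenes, 2 D, 13 J and 2 C, both with V toward the lower coordinates. Igl holds 3 V, 3 J and 3 C, with C toward the lower coordinates. Tcrb also encloses 13 other protein-coding genes, among them the pancreatic trypsinogens Prss1, Prss2 and Prss3, and Igh encloses Adam6a and Adam6b, which are needed for sperm function. No gene was tied to a bin, because that annotation is of another build than the bins.

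The promoters of 4 genes in or beside the arrays are given as examples. These genes were picked by name, so they do not show how other promoters there compare. Dad1, which encodes a subunit of the oligosaccharyltransferase, adjoins Tcra/Tcrd on its higher-coordinate side, and Rpia, an enzyme of the pentose phosphate pathway, adjoins Igk on its higher-coordinate side. Prss2 and Adam6b lie inside Tcrb and Igh. The sequences are from RefSeq (GRCm38.p6) and run 5′ to 3′ on the gene's own strand, from 250 bases before to 50 bases after the gene's start. Capitals mark CG dinucleotides, which read the same on both strands. The positions are chr14:54253880-54254179 (minus strand) for Dad1, chr6:70792126-70792425 (minus strand) for Rpia, chr6:41521526-41521825 (plus strand) for Prss2 and chr12:113489315-113489614 (plus strand) for Adam6b, and they are not comparable with the mm9 bins.
Dad1: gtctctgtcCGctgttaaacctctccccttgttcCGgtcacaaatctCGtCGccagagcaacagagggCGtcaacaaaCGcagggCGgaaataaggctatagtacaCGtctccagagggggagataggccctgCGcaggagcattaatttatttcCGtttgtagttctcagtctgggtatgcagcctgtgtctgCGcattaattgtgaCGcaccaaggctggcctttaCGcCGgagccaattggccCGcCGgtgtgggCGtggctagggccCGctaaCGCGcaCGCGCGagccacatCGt
Rpia: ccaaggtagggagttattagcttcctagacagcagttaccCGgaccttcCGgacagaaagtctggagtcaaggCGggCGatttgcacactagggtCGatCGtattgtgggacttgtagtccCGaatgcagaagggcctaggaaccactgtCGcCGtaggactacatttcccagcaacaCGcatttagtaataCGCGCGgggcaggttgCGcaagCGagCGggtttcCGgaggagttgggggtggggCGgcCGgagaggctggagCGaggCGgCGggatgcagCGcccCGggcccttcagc
Prss2: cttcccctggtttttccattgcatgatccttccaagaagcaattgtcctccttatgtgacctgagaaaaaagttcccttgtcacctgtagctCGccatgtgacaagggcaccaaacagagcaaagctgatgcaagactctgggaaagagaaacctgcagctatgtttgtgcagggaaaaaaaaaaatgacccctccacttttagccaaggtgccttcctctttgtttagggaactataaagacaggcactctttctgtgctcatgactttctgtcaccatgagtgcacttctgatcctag
Adam6b: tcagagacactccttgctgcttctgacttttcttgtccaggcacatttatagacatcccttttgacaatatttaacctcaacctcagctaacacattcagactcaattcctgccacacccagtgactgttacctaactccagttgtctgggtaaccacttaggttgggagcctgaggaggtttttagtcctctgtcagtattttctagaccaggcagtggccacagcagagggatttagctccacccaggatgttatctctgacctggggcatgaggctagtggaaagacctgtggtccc
Dad1 and Rpia each hold 24 CG dinucleotides, Prss2 holds 1 and Adam6b holds 0. Over the 27025 promoters of the same table the median was 7, 94.2% held at least 1, 26.8% held at least 20 and 14.6% held at most 1. These counts describe the letters of these windows and say nothing of methylation or use in the cells.

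Each group has 1 track. The differences below therefore have no replicate behind them and no p-value, and an SD is a spread over bins, which are neither replicates nor independent, since neighbouring 50 kb read windows overlap. The number of reads behind the tracks is unknown, and with no expression values in the files the labelled cell types could not be checked against markers. Progenitor and untreated libraries are marked as re-analysed and were sequenced on another instrument model than the activated ones. Treatment and sequencing batch therefore cannot be told apart between untreated and activated neutrophils. Between progenitors and activated neutrophils, sequencing batch likewise cannot be told apart from differentiation and treatment. Time and replicate cannot be told apart either, because the labels number the 15 min sample 2 and the 30 min sample 1. On the 4 chromosomes that carry the loci, Pearson r between any pair of tracks over bins, which are not independent, lay between 0.913 and 0.977.

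The 5 loci did not share a compartment. Igh and Tcrb were mostly A in every track, Igk was mostly B in every track, and Tcra/Tcrd and Igl differed in the sign of their mean between tracks. Igh had a mean PC1 of 0.880 ± 0.535 in progenitors, 0.519 ± 0.676 in untreated neutrophils, 0.595 ± 0.449 after 15 min and 0.499 ± 0.709 after 30 min (SD over 108 bins). Igk had means of -0.869 ± 0.355, -0.610 ± 0.594, -0.809 ± 0.541 and -0.874 ± 0.362 in the same order (128 bins). All B bins of the genome averaged -0.791, -0.769, -0.857 and -0.820 in that order. The Igk means also take in its bins above zero (7, 17, 15 and 6 of 128 in that order). They are therefore not the same measure as the genome values, and depth was not compared between them. Tcra/Tcrd averaged 0.462 ± 0.317 in progenitors, -0.137 ± 0.371 in untreated neutrophils, 0.284 ± 0.277 after 15 min and 0.459 ± 0.319 after 30 min (58 bins). Tcrb averaged 0.625 ± 0.476, 0.740 ± 0.606, 0.804 ± 0.220 and 0.889 ± 0.321 in the same order (28 bins). Igl averaged -0.158 ± 0.201, -0.697 ± 0.105, 0.356 ± 0.176 and -0.382 ± 0.167 (12 bins). The untreated track was thus the only 1 of the 4 in which Tcra/Tcrd had a negative mean, and the 15 min track the only 1 in which Igl had a positive mean. These signs depend on where zero is set: with zero at each track's chromosome median, Tcra/Tcrd averaged 0.357 in untreated neutrophils and Igl 0.25 in progenitors.

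**Figure D1:**
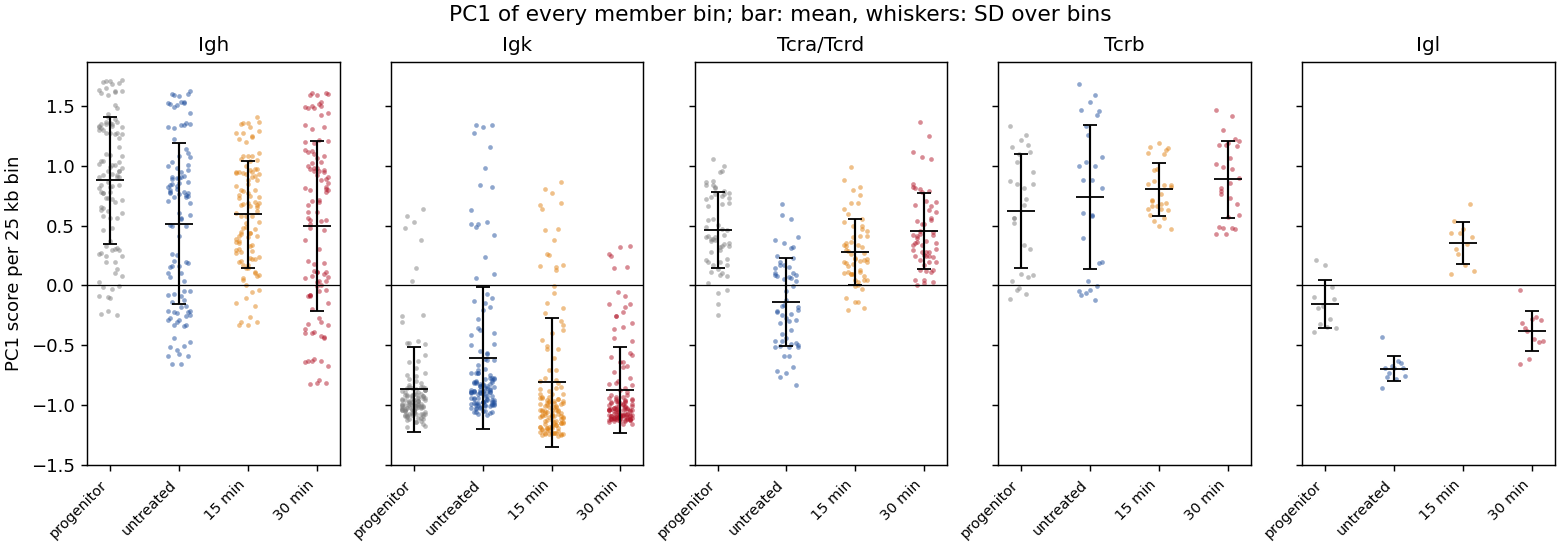
PC1 score of every bin (points) of the 5 windows in the 4 tracks, with the mean (bar) and the SD over bins (whiskers). The Igl bins at 15 min all lie above zero, between 0.0956 and 0.683, and those of untreated neutrophils all lie below it, between -0.862 and -0.433.

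Counted as bins above zero, 55.7% of the 334 bins were A in progenitors, 41.3% in untreated neutrophils, 61.1% after 15 min and 50.9% after 30 min. Over all bins of the genome the shares were 42.7%, 41.6%, 46.7% and 44.3%. The loci differed from each other far more than these pooled shares did. In Igh 99 of 108 bins were A in progenitors, 75 in untreated neutrophils, 98 after 15 min and 78 after 30 min. In Igk the counts were 7, 17, 15 and 6 of 128, and in Tcrb 24, 22, 28 and 28 of 28. In Tcra/Tcrd they were 54, 24, 51 and 58 of 58, and in Igl 2, 0, 12 and 0 of 12. Of the 334 bins, 117 were A in all 4 tracks (35.0%, against 37.5% of all bins) and 118 were B in all 4 (35.3%, against 50.1%). The pattern A in progenitors, B in untreated neutrophils and A at both activated times held 38 bins (11.4%, against 2.32% of all bins), 25 of them in Tcra/Tcrd and 10 in Igh. The pattern A at 15 min alone held 12 bins (3.59%, against 1.99% of all bins), 10 of them in Igl.

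**Figure D2:**
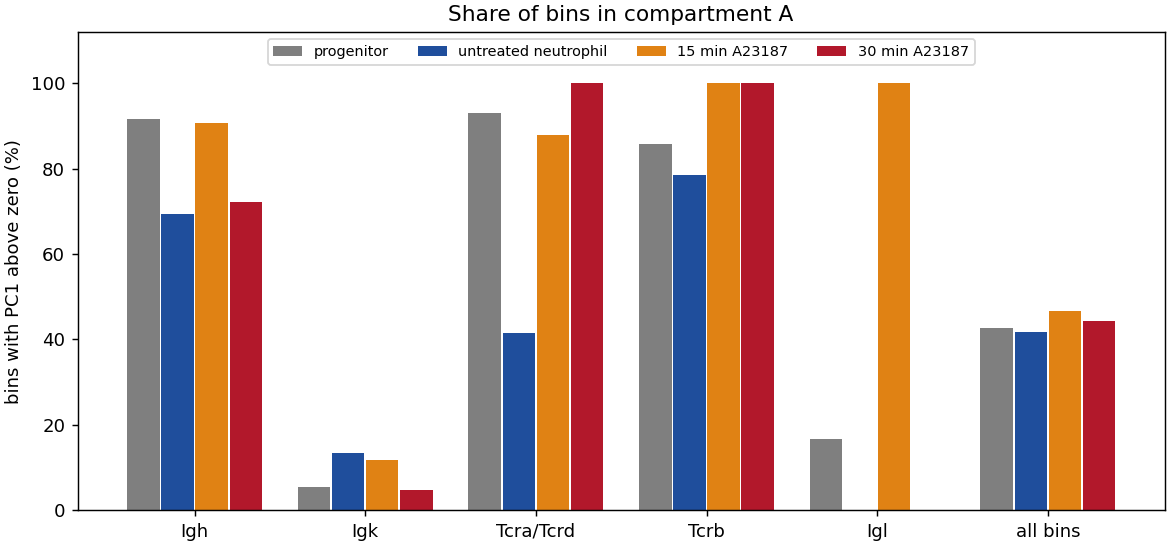
Percentage of bins with a PC1 above zero (vertical axis) in each window and over all 100644 bins used, in the 4 tracks. Tcra/Tcrd stands at 93.1% in progenitors, 41.4% in untreated neutrophils, 87.9% after 15 min and 100% after 30 min.

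Bins were counted as switched if PC1 had opposite signs in the compared tracks, differed by 0.5 root mean squares of the reference track or more, and formed a run of 2 or more neighbours going the same way. In untreated neutrophils relative to progenitors, 45 of the 334 bins (13.5%) switched from A to B, with 21 of the 400 flanking bins (5.25%) and 3.13% of all bins. In the other direction 9 bins (2.69%) switched from B to A, with 9 of the flanking bins (2.25%) and 1.64% of all bins. The A-to-B bins were 25 in Tcra/Tcrd, 18 in Igh and 2 in Igl, and the B-to-A bins all lay in Igk. From A to B the share was 43.1% of the Tcra/Tcrd window and 0% of its flanks, and 16.7% and 10% at Igh. At Igl it was 16.7% and 0%. From B to A it was 7.03% of the Igk window and 8.75% of its flanks. Of the 334 bins, 83 were lower by at least 0.5 (24.9%, against 7.53% of all bins) and 23 were higher by as much (6.89%, against 5.68%).

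At 15 min relative to untreated neutrophils, 46 bins (13.8%) switched from B to A, with 38 flanking bins (9.5%) and 3.29% of all bins. None switched from A to B in the windows, where 0.228% of all bins did. The 46 were 20 bins of Tcra/Tcrd, all 12 of Igl, 8 of Igh and 6 of Tcrb. At Igh the share was 7.41% of the window and 11.25% of the flanks, and at Tcrb 21.4% and 16.25%. At Tcra/Tcrd it was 34.5% and 0%, and at Igl 100% and 10%. A difference of at least 0.5 upward was seen in 57 bins (17.1%, against 6.82% of all bins and 16.5% of the flanking bins), and downward in 7 (2.1%, against 1.44% of all bins). At 30 min relative to untreated neutrophils, 37 bins (11.1%) switched from B to A, with 10 flanking bins (2.5%) and 2.8% of all bins. These were 31 of Tcra/Tcrd, 4 of Tcrb and 2 of Igh. A further 11 bins, all in Igk, switched from A to B (3.29%, against 0.828% of all bins). At least 0.5 higher were 44 bins (13.2%, against 7.62% of all bins), and at least 0.5 lower were 20 (5.99%, against 3.73%).

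These counts rest on the scale of the tracks. After quantile normalization to the untreated track, 8 bins switched from B to A at 15 min, all in Igl, and 6 from A to B, all in Igk. At 30 min 20 switched from B to A, all in Tcra/Tcrd, and 17 from A to B. In untreated neutrophils relative to progenitors the counts were 40 from A to B and 10 from B to A on that scale. Over the genome the share of switched bins that went from B to A at 15 min was 93.5% on the deposited scale and 48.0% after quantile normalization. It was 77.2% and 52.5% at 30 min. The calls are also close to the border of the rule: where a difference of 1 root mean square was asked, 4 bins switched from A to B in untreated neutrophils relative to progenitors, 6 from B to A at 15 min and 2 at 30 min.

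Relative to progenitors, 16 bins switched from B to A at 15 min (4.79%, against 3.25% of all bins) and none from A to B, where 0.616% of all bins did. Of the 400 flanking bins, 20 (5%) switched from B to A in that comparison and 0 from A to B. At 30 min 4 bins switched from B to A (1.2%, against 1.94% of all bins) and 17 from A to B (5.09%, against 0.893%), all 17 in Igh. The flanking bins had 4.75% and 3.5%. Of the Igh flank bins 10% switched from A to B, against 15.7% of the Igh window. By the limit of 0.5, 26 bins were higher at 15 min (7.78%, against 7.24% of all bins) and 6 lower (1.8%, against 2.43%). In the flanks 11% were higher and 0% lower. At 30 min 6 bins of the windows were higher (1.8%, against 4.35% of all bins) and 40 lower (12.0%, against 2.47%), with 6.75% and 5% of the flanking bins. Between the activated times, 24 bins switched from A to B at 30 min relative to 15 min (7.19%, against 1.77% of all bins), 11 of them in each of Igh and Igl. None switched from B to A, where 0.939% of all bins did. Of the 400 flanking bins, 16 (4%) switched from A to B. At Igh the share was 10.2% of the window and 11.25% of the flanks. By at least 0.5, 38 bins of the windows were lower (11.4%, against 4.44% of all bins) and 5 higher (1.5%, against 2.52%). In the flanks 7.75% were lower and 0% higher.

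**Figure D3:**
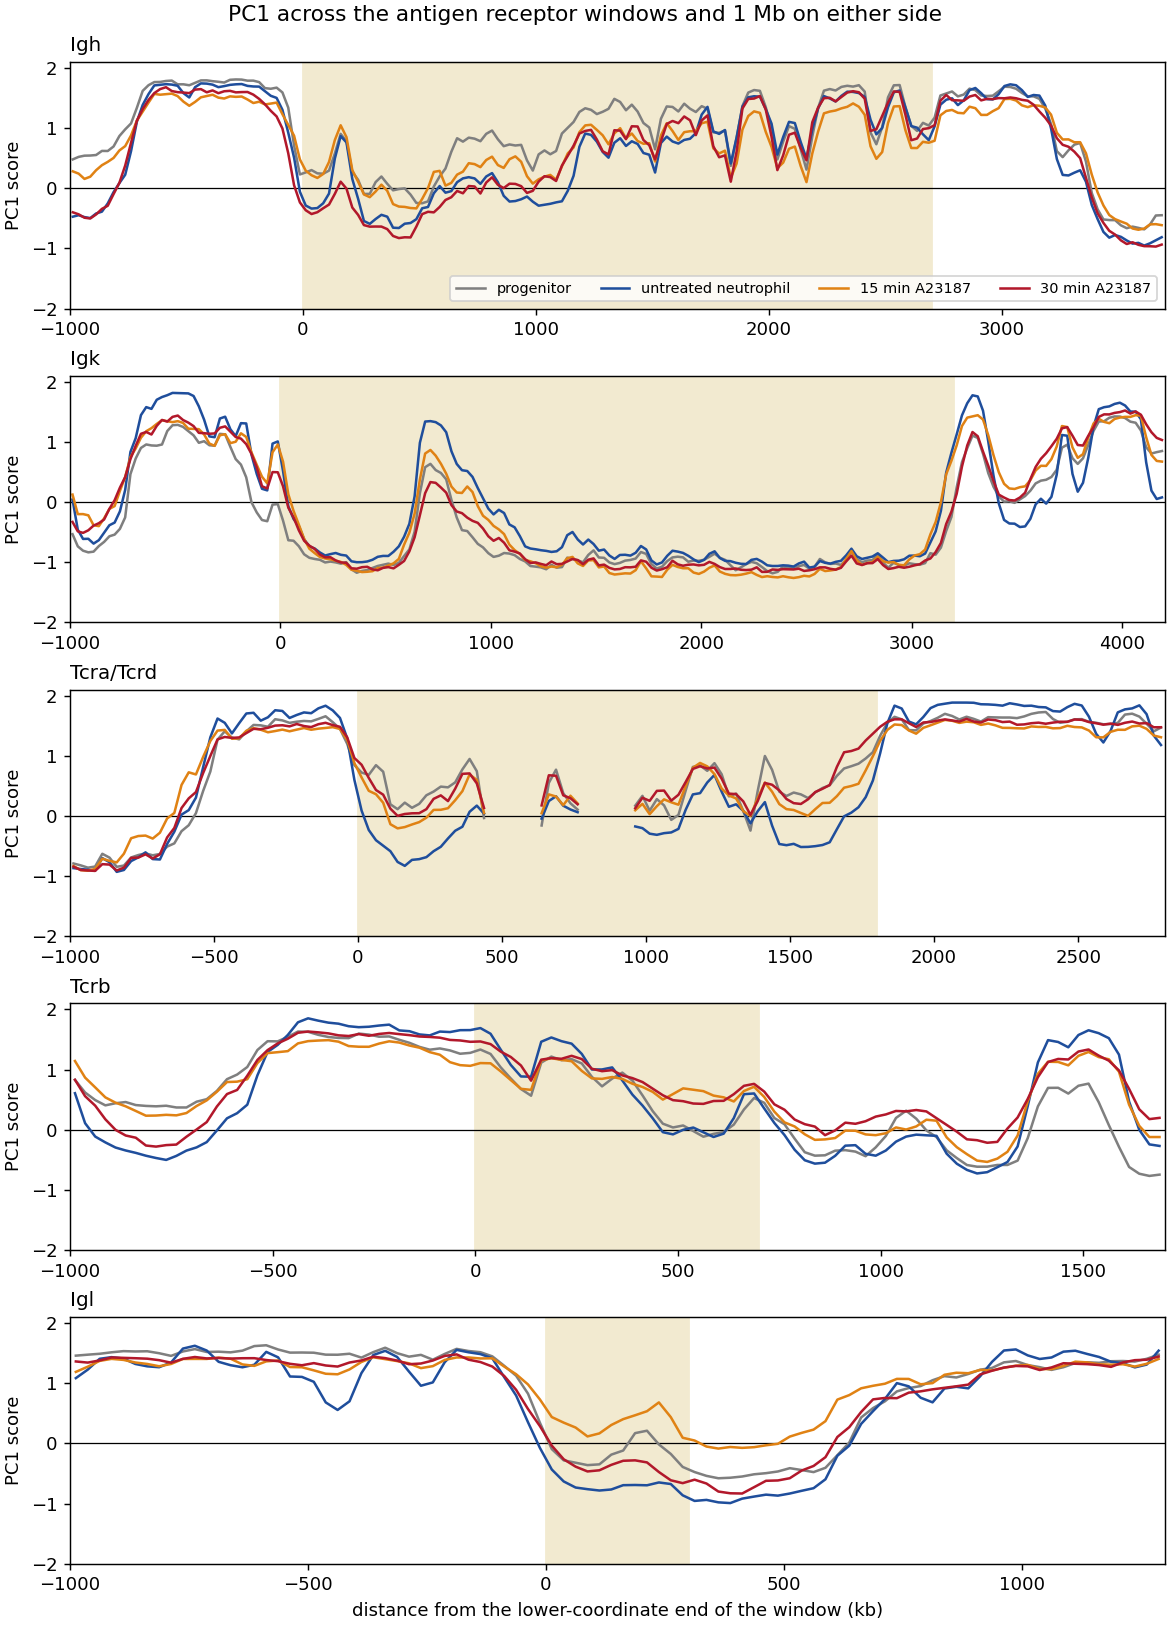
PC1 score (vertical axis) against distance in kb from the lower-coordinate end of each window, which is shaded, with 1 Mb on either side and 1 line per track. Igk is a trough with an island above zero, and Igh climbs along the window. In Tcra/Tcrd the untreated line runs below the others over most of the window toward both its ends, but not in every bin beside the gaps.

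Igh climbed from one end to the other. In 4 parts of 675 kb from the lower-coordinate end, where the annotation places the C genes, mean PC1 was 0.199, 0.895, 1.21 and 1.22 in progenitors and -0.201, 0.151, 0.931 and 1.19 in untreated neutrophils. It was 0.126, 0.511, 0.852 and 0.891 at 15 min and -0.427, 0.310, 0.961 and 1.15 at 30 min. The part at the low end was therefore B on average in untreated and 30 min neutrophils and A in the other tracks, and the 2 parts at the high end were A in every bin of every track. The lowest bin of the untreated track (114900001 to 114925000) had -0.0122, -0.660, -0.303 and -0.828 in the 4 tracks in order. The highest (117050001 to 117075000) had 1.72, 1.63, 1.37 and 1.60.

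In untreated neutrophils Igh was lower than in progenitors by a mean of -0.361 ± 0.331 (SD over bins). Of its bins, 92 of 108 (85.2%) were lower, where 44.6% of all bins were. Of its flanking bins 71 of 80 (88.8%) were lower too, so this share is not particular to the window. Within the window the second part differed most, at -0.744, and the fourth least, at -0.0239. The bins that switched from A to B formed runs at 114500001 to 114575000 (-0.317 in untreated neutrophils, against 0.272 in progenitors), 114800001 to 114875000 (-0.474 against 0.125) and 115350001 to 115650000. This last run spans 300 kb and averaged -0.201 in untreated neutrophils and 0.661 in progenitors. The largest fall was at 115600001 to 115625000, with -0.215 in untreated neutrophils and 0.912 in progenitors. The largest rise was at 116925001 to 116950000, with 1.14 and 0.928.

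After 15 min with A23187 the Igh mean differed from untreated neutrophils by 0.0766 ± 0.328, which became -0.0890 after quantile normalization and -0.135 with zero at the chromosome median. The low parts were higher, by 0.328 and 0.359, and the high parts lower, by -0.0786 and -0.302. The bins that switched from B to A lay at 114475001 to 114575000 (0.291 at 15 min, against -0.252 in untreated neutrophils), 115375001 to 115450000 (0.486 against -0.204) and 115600001 to 115650000 (0.473 against -0.129), and none was called after quantile normalization. After 30 min the Igh mean differed by -0.0194 ± 0.246, and by 0.0141 with the ends of the window trimmed. The run at 115600001 to 115650000 was again called from B to A (0.459 at 30 min, against -0.129 in untreated neutrophils). The largest fall was at 114675001 to 114700000, with -0.00488 at 30 min and 0.763 in untreated neutrophils.

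At 30 min relative to 15 min the low end of Igh was called from A to B in runs at 114475001 to 114650000 (-0.302 at 30 min, against 0.378 at 15 min), 114675001 to 114750000 (-0.256 against 0.421) and 115050001 to 115100000 (-0.355 against 0.282). Relative to progenitors, the 30 min track was B over the runs 114500001 to 114650000 (-0.314 against 0.322), 114675001 to 114750000 (-0.256 against 0.400), 114800001 to 114875000 (-0.650 against 0.125) and 115075001 to 115200000 (-0.156 against 0.549). The 15 min track had 0 such bins on the deposited scale and 6 after quantile normalization, and was lower than progenitors by a mean of -0.284.

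Igk was a trough between flanks with a positive mean PC1 on both sides in every track. The B segment around the middle of the window measured 2375 kb in progenitors. In untreated neutrophils it measured 2175 kb, after 15 min of A23187 2225 kb and after 30 min 2400 kb. The third part of the window was the deepest, with a mean of -1.0 in progenitors, -0.936 in untreated neutrophils, -1.17 after 15 min and -1.08 after 30 min and 0 bins above zero. The lowest bin of the untreated track (70000001 to 70025000) had -1.11, -1.09, -1.24 and -1.13 in the 4 tracks.

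An island of compartment A stood inside the trough, toward the end where the annotation begins the V array. Its top bin, 68200001 to 68225000, had 0.636 in progenitors, 1.35 in untreated neutrophils, 0.868 after 15 min and 0.334 after 30 min. The island was highest and widest in untreated neutrophils, where the longest run above zero measured 350 kb, against 175 kb in progenitors. After A23187 it measured 275 kb (15 min) and 125 kb (30 min). In untreated neutrophils relative to progenitors its higher-coordinate side, 68325001 to 68475000, switched from B to A (0.400 against -0.539). At 30 min relative to untreated neutrophils the bins at 68125001 to 68175000 (-0.403 against 0.542) and 68300001 to 68475000 (-0.249 against 0.464) switched from A to B. At 15 min relative to progenitors a shorter stretch, 68350001 to 68425000, was called from B to A (0.193 against -0.511).

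The other place where Igk changed sign was its higher-coordinate end, where the annotation places the J segments and the C gene. The run 70650001 to 70700000 averaged -0.363 in progenitors, 0.656 in untreated neutrophils, 0.575 after 15 min and -0.261 after 30 min. It was called from B to A in untreated and 15 min neutrophils relative to progenitors, and from A to B at 30 min relative to untreated neutrophils and to 15 min. Its last bin, 70675001 to 70700000, had the largest difference of the window in untreated neutrophils relative to progenitors, with 0.823 against -0.246. At the opposite edge a run that lies mostly in the flank, from 67350001, was called from B to A in untreated neutrophils (0.596 against -0.167), at 15 min (0.597 against -0.226) and at 30 min (0.447 against -0.167) relative to progenitors, and reached 1, 2 and 1 bins into the window.

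Over the whole of Igk, untreated neutrophils were higher than progenitors by 0.259 ± 0.286, with 122 of 128 bins higher, where 55.4% of all bins were. Both flanks together differed by 0.232, but the sides were unlike. The lower-coordinate flank averaged 0.828 in untreated neutrophils and 0.355 in progenitors, and the higher-coordinate flank 0.732 and 0.741. Within the window the second part differed most, at 0.474, and the third least, at 0.0648. At 15 min Igk was lower than in untreated neutrophils by -0.20 ± 0.156, with 117 bins lower, where 60.7% of all bins were, and the flanks differed by 0.0635. At 30 min it was lower by -0.264 ± 0.266, with 126 bins lower, where 59.6% of all bins were, and the flanks differed by 0.0225. Relative to progenitors, Igk differed by 0.0594 at 15 min, which became -0.0150 as a median over bins and -0.144 with zero at the chromosome median. At 30 min it differed from progenitors by -0.00535, which became 0.00759 after quantile normalization.

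Tcra/Tcrd was lower in untreated neutrophils than in the other tracks. It was lower in untreated neutrophils than in progenitors by a mean of -0.60 ± 0.356, with 54 of 58 bins lower, where 44.6% of all bins were, and the flanks were higher by 0.111. In 4 parts of 450 kb from the V end, mean PC1 was -0.388, 0.144, 0.0714 and -0.166 in untreated neutrophils, against 0.475, 0.309, 0.386 and 0.569 in progenitors. The second part holds only 6 bins, because of the gaps. The outer parts differed most and the inner parts, which hold the gaps, least.

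Both long switched runs of Tcra/Tcrd lay in these outer parts. At 53025001 to 53375000 (350 kb) mean PC1 was 0.440 in progenitors, -0.526 in untreated neutrophils, 0.0852 after 15 min and 0.271 after 30 min. At 54425001 to 54700000 (275 kb) it was 0.488, -0.388, 0.20 and 0.468 in the same order. These runs account for all 25 bins of the locus that switched from A to B in untreated neutrophils relative to progenitors, and the count was also 25 after quantile normalization. The bin with the largest fall, 53050001 to 53075000, had -0.405 in untreated neutrophils and 0.844 in progenitors. The lowest bin of the untreated track, 53150001 to 53175000, had 0.221, -0.831, -0.186 and 0.0320 in the 4 tracks, and the highest, 54225001 to 54250000, had 0.877, 0.682, 0.695 and 0.804.

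With A23187 Tcra/Tcrd was higher than in untreated neutrophils, by 0.422 ± 0.219 at 15 min with 56 of 58 bins higher (where 39.3% of all bins were) and by 0.597 ± 0.292 at 30 min with all 58 bins higher (where 40.4% of all bins were). The flanks were lower, by -0.118 and -0.120. At 15 min the called runs were 53025001 to 53100000 (0.332, against -0.378 in untreated neutrophils), 53250001 to 53375000 (0.20 against -0.381), 54050001 to 54100000 (0.251 against -0.281) and 54425001 to 54675000 (0.173 against -0.426). After quantile normalization the 15 min difference was 0.171, 0 bins of the locus were called, and 44.8% of its bins were A. At 30 min the whole of both long runs was called from B to A, as was 53975001 to 54125000 (0.333, against -0.265 in untreated neutrophils). The locus had 31 such bins on the deposited scale and 20 after quantile normalization. The bin with the largest rise at 30 min, 54675001 to 54700000, had 1.06, against -0.00726 in untreated neutrophils.

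Set against progenitors, the 30 min track differed at Tcra/Tcrd by -0.00292 ± 0.191, and 0 bins switched in either direction. The odd-numbered bins alone gave 0.000961, and quantile normalization gave -0.0878. The 15 min track was lower than progenitors by -0.178 ± 0.196.

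Along the coordinates Tcrb sloped the other way from Igh. The annotation orders these arrays in opposite ways, so both windows were higher toward V. The V end of Tcrb was A in every bin of every track. Its far end was lower, near zero in progenitors and untreated neutrophils and further above it with A23187. In 4 parts of 175 kb from the V end, mean PC1 was 0.977, 1.01, 0.407 and 0.100 in progenitors, 1.28, 1.25, 0.267 and 0.170 in untreated neutrophils, 0.929, 1.01, 0.676 and 0.606 at 15 min and 1.21, 1.11, 0.682 and 0.558 at 30 min. The highest bin of the untreated track was the outermost at the V end, 40800001 to 40825000, with 1.33, 1.69, 1.11 and 1.47 in the 4 tracks. The lowest, 41375001 to 41400000, had -0.0697, -0.121, 0.567 and 0.477.

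Untreated neutrophils and progenitors differed little at Tcrb, by 0.116 ± 0.186, and 0 bins switched. At 15 min the mean differed from untreated neutrophils by 0.0638 ± 0.414, which became -0.0866 after quantile normalization, -0.238 with zero at the chromosome median and -0.0615 as a median over bins. Within the window the parts nearer V were lower at 15 min, by -0.346 and -0.242, and the far parts higher, by 0.408 and 0.435. The bins at 41250001 to 41325000 (0.594 at 15 min, against -0.0403 in untreated neutrophils) and 41350001 to 41425000 (0.582 against -0.0768) switched from B to A. At 30 min the mean differed by 0.148 ± 0.305, and 41250001 to 41300000 (0.532 against -0.0595) and 41375001 to 41425000 (0.479 against -0.0936) switched. Untreated values in these runs lay just below zero, and after quantile normalization 0 of the Tcrb bins switched at either time. Relative to progenitors, 41325001 to 41425000 was called from B to A at 15 min (0.603 against -0.0619) and 41350001 to 41425000 at 30 min (0.462 against -0.0752).

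Igl is the shortest locus, and in untreated neutrophils the B stretch around it ran on into the higher-coordinate flank, from 18975001 to 19650000. Every bin was lower in untreated neutrophils than in progenitors, by a mean of -0.539 ± 0.186. The only 2 bins that were A in progenitors, at 19175001 to 19225000, switched to B and averaged -0.693 in untreated neutrophils and 0.192 in progenitors. At 15 min every bin was higher than in untreated neutrophils, by 1.05 ± 0.141, the largest mean difference of any of the 5 loci in any of the 6 comparisons. The run that switched from B to A extended past both ends of the window, from 18975001 to 19325000 (350 kb), with 0.361 at 15 min and -0.671 in untreated neutrophils. At 30 min every bin was still higher than in untreated neutrophils, by 0.316 ± 0.112, and 0 bins were A. From 19025001 to 19325000 the 30 min track was therefore called from A to B relative to 15 min, with -0.429 against 0.324.

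The 15 min mean of Igl stayed positive on both other scales, at 0.0915 with 66.7% of bins A after quantile normalization and at 0.448 with zero at the chromosome median, and the difference from untreated neutrophils was 0.789 there and 0.790 with zero at the chromosome median. Relative to progenitors, Igl was higher at 15 min by 0.514 ± 0.116, with runs called from B to A at 19000001 to 19075000 (0.351 against -0.231) and 19225001 to 19275000 (0.561 against -0.0946). After quantile normalization the mean difference of Igl was 0.283 and 0 of its bins were called. At 30 min it was lower than progenitors by -0.223 ± 0.201. The lowest bin of the untreated track, 19275001 to 19300000, had -0.390, -0.862, 0.0956 and -0.660 in the 4 tracks, and the highest, 19000001 to 19025000, had -0.0931, -0.433, 0.439 and -0.0362.

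**Figure D4:**
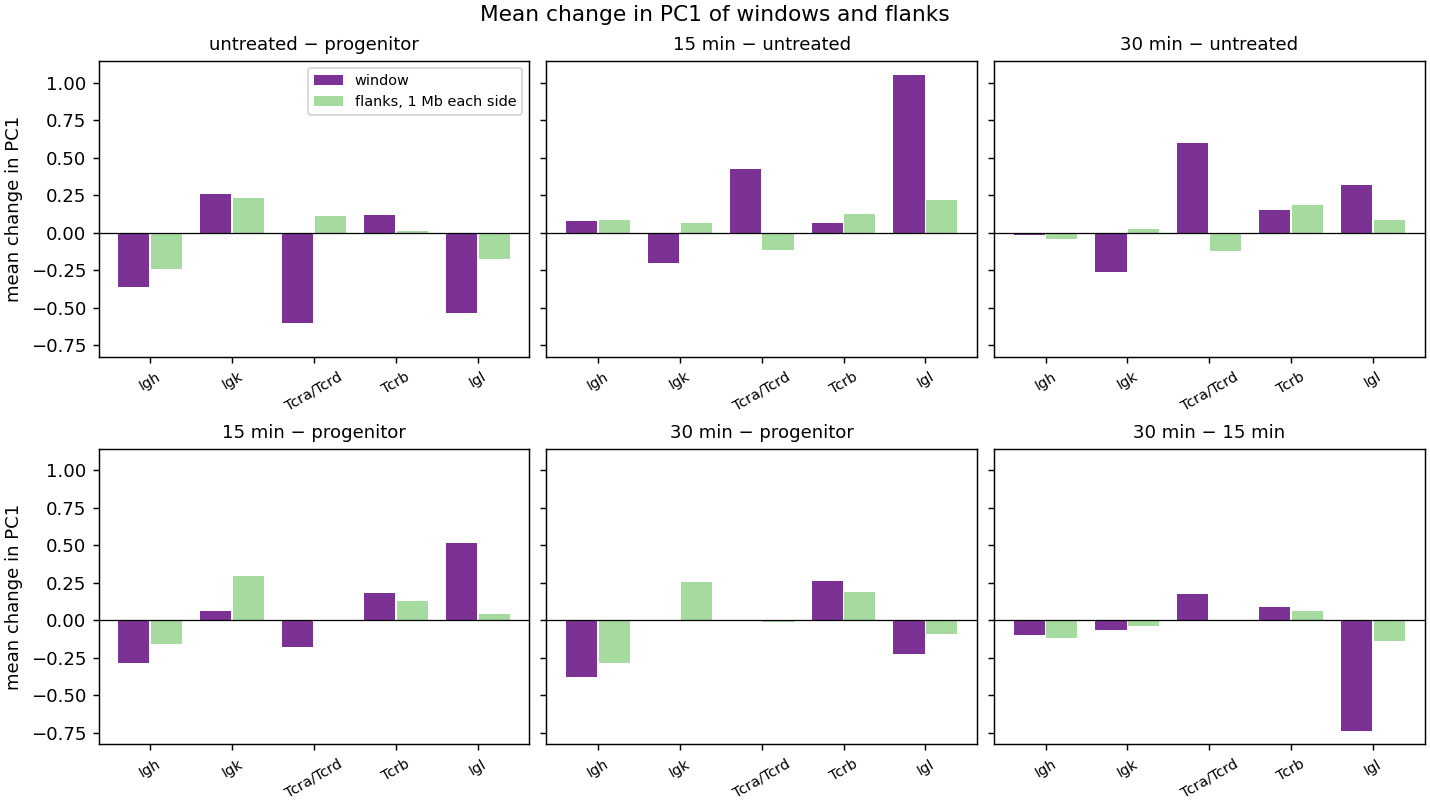
Mean difference in PC1 between tracks (vertical axis, 1 panel per comparison) for each window and for its flanks. Tcra/Tcrd windows and flanks go opposite ways in the untreated, 15 min and 30 min panels of the upper row, and the Igl window at 15 min stands at 1.05.

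Against their surroundings, Igk, Igl and Tcra/Tcrd lay below both flanks together in every track, Igh lay slightly below and Tcrb slightly above. The Igk window was below its flanks by -1.42 in progenitors, -1.39 in untreated neutrophils, -1.65 after 15 min and -1.68 after 30 min. Igl was below by -1.18, -1.55, -0.714 and -1.32 in the same order, and Tcra/Tcrd by -0.573, -1.28, -0.744 and -0.567. Igh differed from its flanks by -0.168, -0.287, -0.292 and -0.266, and Tcrb by 0.160, 0.266, 0.209 and 0.233. The side matters for Tcra/Tcrd, Igh and Tcrb. Against its lower-coordinate flank alone Tcra/Tcrd differed by -0.0179, -0.720, -0.310 and -0.0384 in the 4 tracks, and against its higher-coordinate flank alone by -1.13, -1.85, -1.18 and -1.10. Against its higher-coordinate flank alone Igh differed by 0.154 in progenitors, and against its lower-coordinate flank alone Tcrb differed by -0.435, -0.0935, -0.170 and -0.0323.

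The flanks also differed between tracks, at some loci by about as much as the window and at others in the opposite direction. In untreated neutrophils relative to progenitors the Igh window differed by -0.361 and its flanks by -0.242, while Tcra/Tcrd and its flanks differed by -0.60 and 0.111 and Igl and its flanks by -0.539 and -0.175. At 15 min relative to untreated neutrophils Igl and its flanks differed by 1.05 and 0.219, and Tcrb and its flanks by 0.0638 and 0.121. The Igl difference was not confined to the window. The stretch 18975001 to 19650000, which runs on into the flank, averaged 0.264 at 15 min and -0.705 in untreated neutrophils. Of the Igl flank bins, 19 of 80 (23.75%) were higher by at least 0.5, against 6.82% of all bins.

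The authors' deposited domain lists give positive and negative stretches of the untreated track, whose scores are the authors' own. Parts of the Igh, Tcra/Tcrd and Tcrb windows are in neither list. Per these lists, negative domains cover 86.7% of the Igk window, 100% of Igl, 44.4% of Tcra/Tcrd, 28.7% of Igh and 0% of Tcrb. Positive domains cover 13.3%, 0%, 26.4%, 68.5% and 75.0% of the same windows. The Tcrb bins below zero in untreated neutrophils lie in no listed domain. The longest negative domain is that of Igk from 68475001 to 70650000 (2175 kb), with a deposited score of -0.833 in the authors' deposited table. Over that domain the tracks averaged -0.988 in progenitors, -0.833 in untreated neutrophils, -1.03 after 15 min and -1.02 after 30 min. The Igk island is a positive domain of its own there, 68125001 to 68475000, whose bins averaged -0.0664 in progenitors, 0.770 in untreated neutrophils, 0.318 after 15 min and -0.0962 after 30 min. The Igl domain runs on beyond the window, from 18975001 to 19650000 (675 kb), with -0.283, -0.705, 0.264 and -0.416 in the 4 tracks.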

How the data were processed

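In situ Hi-C was deposited as 4 PC1 tracks, one each for progenitors, untreated neutrophils, and neutrophils with A23187 for 15 min and 30 min. The 148 other samples of the series were not analysed here. The authors made the deposited PC1 values, which are scores, with HiC-Pro, Bowtie2 and HOMER on mm9, per the submitters' processing notes, and those notes also list deepTools. The sources used here give no tool versions. Values are spaced 25 kb apart over 50 kb windows, per the deposited files' titles. The domain lists hold each domain's score, which the authors deposited and which equals the mean untreated PC1 over the domain.

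Windows, flanks, switched bins and shifts of at least 0.5 were computed with Python 3.11.15, numpy 2.4.6 and pandas 2.3.3 on bins that were non-missing and non-zero in all 4 tracks of 20 chromosomes. No test was possible with 1 track per group. All 5 windows are described, and within them every switched run, the lowest and highest untreated bins and the largest differences where a locus is taken further. The members and lists were chosen with earlier results of these data known. Alternatives were other scales, zeros, bin subsets, window edges, flanks and thresholds. Quantile normalization moved the median difference of all bins by under 0.1. Zero at the chromosome median gave a median of -0.277 at 15 min relative to untreated neutrophils, against -0.0758 as deposited, and changes on that scale are to be read relative to it.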

Additional observations from a re-analysis of the deposited data

Results flagged for a closer look

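The mean PC1 of the Igh window was higher at 15 min than in untreated neutrophils, by 0.0766, and lower at 30 min, by -0.0194. The 30 min difference minus the 15 min difference is -0.0960. It was picked out because the activated times stood on opposite sides of the untreated track. The flanks of Igh did so too, with 0.0816 at 15 min and -0.0407 at 30 min, so the pattern is not particular to the window. The same held for 114500001 to 115175000 within Igh, with 0.328 at 15 min and -0.226 at 30 min (-0.554), and for 115850001 to 116525000, with -0.0786 at 15 min and 0.0301 at 30 min (0.109). For the whole window the pattern rests on the settings: after quantile normalization the differences were -0.0890 at 15 min and -0.0923 at 30 min, on the same side, and with the ends of the window trimmed the 30 min difference was 0.0141. These differences were not tested: each time has 1 track, both share the untreated track, and time and replicate cannot be told apart.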

How the results depend on the processing

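No paired analysis was possible because each group has 1 deposited track, and for the same reason no replicate could be left out. Over the mean and difference of each locus and the pooled shares, flank differences and counts, 380 of 472 alternative values stayed within the yardstick, 76 moved beyond it and 16 reversed. The yardstick was the SD over a window's bins for means and differences, an exact 95% binomial interval over bins for shares, and 1.5 times for counts. It is no replicate error, the depth of the tracks is unknown, and the cause of each move was not tested except where fewer bins could pass a stricter threshold.

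After quantile normalization the share of A bins over the 5 windows was 45.2% at 15 min and 44.0% at 30 min. The Igl mean at 15 min was 0.0915. Igl differed by 0.283 at 15 min from progenitors, 0.789 at 15 min from untreated neutrophils and -0.536 at 30 min from 15 min, and Tcra/Tcrd by 0.171 at 15 min from untreated neutrophils. Reversals were -0.0890 for Igh and -0.0866 for Tcrb at 15 min from untreated neutrophils, and 0.00759 for Igk at 30 min from progenitors. B-to-A and A-to-B switches were 8 and 6 at 15 min relative to untreated neutrophils, 20 and 17 at 30 min relative to untreated neutrophils, and 5 and 8 at 15 min relative to progenitors. They were 0 and 28 at 30 min relative to progenitors, and 11 switched from A to B at 30 min relative to 15 min. Bins higher and lower by 0.5 were 12 and 31 at 15 min relative to untreated neutrophils, 6 and 55 at 15 min relative to progenitors, and 14 and 13 at 30 min relative to 15 min, and 0 were higher at 30 min relative to progenitors.

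With zero at each track's chromosome median the A share reached 64.4% in progenitors and 60.2% both in untreated neutrophils and after 30 min. Tcra/Tcrd averaged 0.976 in progenitors, 0.571 at 15 min and 0.930 at 30 min, and reversed to 0.357 in untreated neutrophils. Igl averaged -0.342 in untreated neutrophils and -0.0919 at 30 min, and reversed to 0.25 in progenitors. At 15 min relative to untreated neutrophils the difference was -0.501 for Igk and 0.790 for Igl, and reversed to -0.135 for Igh and -0.238 for Tcrb. At 15 min relative to progenitors it was 0.198 for Igl and -0.404 for Tcra/Tcrd, and reversed to -0.144 for Igk and -0.0240 for Tcrb. At 30 min relative to 15 min it was -0.540 for Igl, 0.358 for Tcra/Tcrd and 0.265 for Tcrb, and reversed to 0.0759 for Igh and 0.116 for Igk.

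As a median over bins, reversals were -0.0150 for Igk at 15 min from progenitors, 0.0134 for Igk at 30 min from 15 min and -0.0615 for Tcrb at 15 min from untreated neutrophils. Trimmed windows reversed Igh at 30 min from untreated neutrophils to 0.0141, and odd bins alone reversed Tcra/Tcrd at 30 min from progenitors to 0.000961. Tcrb minus flanks reversed to -0.0451 in progenitors with flanks of 500 kb, and against the lower-coordinate flank alone to -0.435 in progenitors, -0.0935 in untreated neutrophils, -0.170 after 15 min and -0.0323 after 30 min. Igh minus its higher-coordinate flank alone reversed to 0.154 in progenitors.

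Where runs of 4 bins were asked, the B-to-A counts were 30 at 15 min relative to untreated neutrophils, 6 at 15 min and 1 at 30 min relative to progenitors, and the A-to-B counts 7 at 30 min relative to untreated neutrophils and 11 at 30 min relative to progenitors. At 0.25 root mean squares the A-to-B counts were 2 at 15 min relative to untreated neutrophils and 6 at 15 min relative to progenitors. At 1 root mean square the B-to-A and A-to-B counts were 0 and 4 in untreated neutrophils relative to progenitors, 2 and 0 at 30 min relative to untreated neutrophils and 0 and 0 at 30 min relative to progenitors. The B-to-A counts were 6 and 0 at 15 min relative to untreated neutrophils and to progenitors, and 2 bins went from A to B at 30 min relative to 15 min. At a shift of 0.25 the counts higher and lower were 102 and 81 at 15 min and 79 and 53 at 30 min relative to untreated neutrophils, 45 and 102 at 15 min and 35 and 74 at 30 min relative to progenitors, and 37 and 72 at 30 min relative to 15 min, with 53 higher in untreated neutrophils relative to progenitors. At 0.75 they were 13 and 0, 24 and 13, 7 and 0, 0 and 17, and 0 and 9 in the same order, with 42 lower in untreated neutrophils relative to progenitors.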
